A study of Rattus norvegicus with 9 samples.

Results

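The genes examined here encode the proteases that mast cells store in their granules. They were chosen as every probe set of the deposited values table that is annotated to Cma1, Cpa3, Tpsab1 or a symbol beginning with Mcpt, and 11 probe sets met that rule. Of these, 9 carry 1 symbol and 2 are annotated to the same 5 symbols, so that the 11 probe sets stand for 12 of the 5147 genes named on the array, 8 of which have a probe set of their own. Total RNA of rat lung was measured on 9 oligonucleotide arrays. The animals were mechanically ventilated with 100% oxygen, mechanically ventilated with 21% oxygen, breathing spontaneously in 100% oxygen, or breathing spontaneously in 21% oxygen, which is the oxygen content of air. These groups are called mechanical 100, mechanical 21, spontaneous 100 and spontaneous 21. Each group had 2 samples, lettered a and b, and mechanical 100 b was hybridised to 2 arrays whose values were averaged into 1 sample. Strain, age, tidal volume, duration and any agent common to all groups are not stated in the sources at hand. Nor do these say whether letters a and b were separate animals, so every p-value below is set against a spread between samples that may be technical.

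As background, mast cell granules hold 3 classes of protease bound to the proteoglycan serglycin, encoded by Srgn: chymases, tryptases and a carboxypeptidase. Rodents have many more chymase genes than humans, most of them named Mcpt, and in the lung mast cells lie around airways, vessels and the pleura. On release chymases cut matrix proteins such as fibronectin, tryptases cut the receptor encoded by F2rl1, and carboxypeptidase A3, encoded by Cpa3, removes single residues from the ends of peptides that chymases have opened. RNA from whole lung cannot tell fewer mast cells from less RNA per mast cell.

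The deposited values are intensities in arbitrary units, and the 2% trimmed mean was 801 on each of the 9 arrays. Between 18.4% and 19.9% of values per array were at or below 0. The 19 control probe sets with no target in rat RNA reached at most 302, and that reading serves below as a rough ceiling of noise. The median of the 19 within an array was at most 11.4 on any array. Lung epithelial genes such as Sftpc and Scgb1a1 were bright in every sample. The summed intensity of the 9 measured list members was lowest in mechanical 100 (46856 and 51776) and highest in spontaneous 21 (99436 and 85331). Transcripts of other tissues differed strongly between groups. The summed list of T and natural killer lymphocyte genes read 34822 and 36777 in mechanical 21, against 3833 to 5630 in the other 6 samples, and the fat list read 21542 and 22875 in mechanical 21, against 8473 to 12050. The skeletal muscle list read 29216 and 28236 in spontaneous 100, against 3004 to 8959 in the other samples. A line for a lot batch, with no lot named, stands in the labels of both spontaneous 21 samples, of mechanical 100 a and of 1 of the 2 arrays of mechanical 100 b, and in no others. For both contrasts of spontaneous 21 with mechanical 21 or spontaneous 100, that line and the group cannot be told apart. The interaction sets mechanical 100 and spontaneous 21 against mechanical 21 and spontaneous 100. Apart from an array of mechanical 100 b, it thus follows that line as well. With the line as a block, 3.03% of all probe sets were called for the interaction, against 27.4% in the main fit.

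In the current RefSeq assembly GRCr8, 10 of the 12 genes lie on chromosome 15 between Cma1 (33387351 to 33390133) and Mcpt10 (33885728 to 33888787). That interval holds 26 annotated genes, of which 13 are Cma1 or have a symbol beginning with Mcpt. Mcpt1l1 (gene 100360872) lies at 33874239 to 33876895 and Mcpt1 (gene 29266) at 33841606 to 33844174. Cpa3 (gene 54242) lies on chromosome 2 at 104641619 to 104673253, and Tpsab1 (gene 54271) on chromosome 10 at 14864887 to 14867302. RefSeq lists the protein name rMCP-I for both Mcpt1 and Mcpt1l1, and rMCP-II for Mcpt1. No probe set carries the symbol Mcpt2.

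Upstream sequence was found for 11 of the 12 genes in RefSeq (GRCr8). The 3 promoters shown are of genes that each had a probe set highest in a different group. The probe sets of Mcpt1l1 differed, and the dimmer was highest in the same group as Cpa3. Mcpt1l1 and Mcpt1 are close relatives on chromosome 15, and Cpa3 is not related to them. Each promoter is the 250 bases before the start given in the RefSeq promoter table, read 5′ to 3′. For Cpa3 that start lies inside the gene interval given above, so the last bases shown belong to the annotated gene. Capitals mark GATA words on either strand (AGATAA, or the same with T as first letter, with G as last letter, or with both), which GATA factors of mast cells can bind, and TATAAA, the core of a TATA box, on the strand shown.
Mcpt1l1 chr15:33876896-33877145 (minus strand): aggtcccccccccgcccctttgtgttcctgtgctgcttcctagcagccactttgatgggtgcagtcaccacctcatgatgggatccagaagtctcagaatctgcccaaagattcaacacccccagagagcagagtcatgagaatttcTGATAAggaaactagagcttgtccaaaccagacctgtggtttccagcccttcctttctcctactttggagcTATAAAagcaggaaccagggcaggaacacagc
Mcpt1 chr15:33841356-33841605 (plus strand): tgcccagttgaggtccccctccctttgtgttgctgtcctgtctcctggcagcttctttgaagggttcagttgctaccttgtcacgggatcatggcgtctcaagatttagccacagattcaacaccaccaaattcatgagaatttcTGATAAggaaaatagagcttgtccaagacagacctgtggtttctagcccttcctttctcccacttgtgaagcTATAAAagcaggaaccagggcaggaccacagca
Cpa3 chr2:104673238-104673487 (minus strand): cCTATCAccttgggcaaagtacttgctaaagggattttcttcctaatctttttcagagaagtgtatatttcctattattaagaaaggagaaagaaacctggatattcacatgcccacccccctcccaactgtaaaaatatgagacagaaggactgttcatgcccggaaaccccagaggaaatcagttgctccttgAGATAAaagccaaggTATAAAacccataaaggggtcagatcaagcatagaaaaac
Aligned end to end, the first pair matched at 76.7% of positions. Mcpt1l1, Mcpt1, Mcpt3 and Mcpt4 share a run of 19 bases that begins with the TATA word, TATAAAAGCAGGAACCAGG, and a run of 16 that holds the GATA word, GAATTTCTGATAAGGA. Counted on either strand, a GATA word was present in 6 of the 11 promoters and in 27.0% of all 33465 promoters of the same length. A TATA word, also counted on either strand, was present in 5 of the 11 and in 12.9% of all. The E-box words CACATG or CATGTG were present in 1 of the 11, that of Cpa3, and in 12.1% of all. The Mcpt8 and Mcpt9 promoters matched each other at 90.3% of positions and held none of these words. Their stretches (33769399 to 33769648 and 33827180 to 33827429) run past the annotated gene starts at 33769575 and 33827348. Part of each thus belongs to the annotated gene, as is also so for Mcpt8l2. A match of letters is no evidence of binding.

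Most of these proteases gave little signal in lung. Only 1 of the 11 probe sets, the brighter one for Mcpt1l1, was above the control ceiling in every sample, whereas 35.5% of all probe sets on the array were. A further probe set, for Cma1, exceeded it in 1 sample, and the remaining 9 never did, against 46.4% of all probe sets. Signal was above 0 in every sample for 5 probe sets and below 0 in every sample for 2. The filter on low signal, set on the mean over all samples, left 4 probe sets of 3 genes in the tests, namely both for Mcpt1l1 and those for Tpsab1 and Cpa3, and 7 were not tested. Since a probe set's brightness depends on its own probes, levels are compared between samples and never between probe sets.

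**Figure D1:**
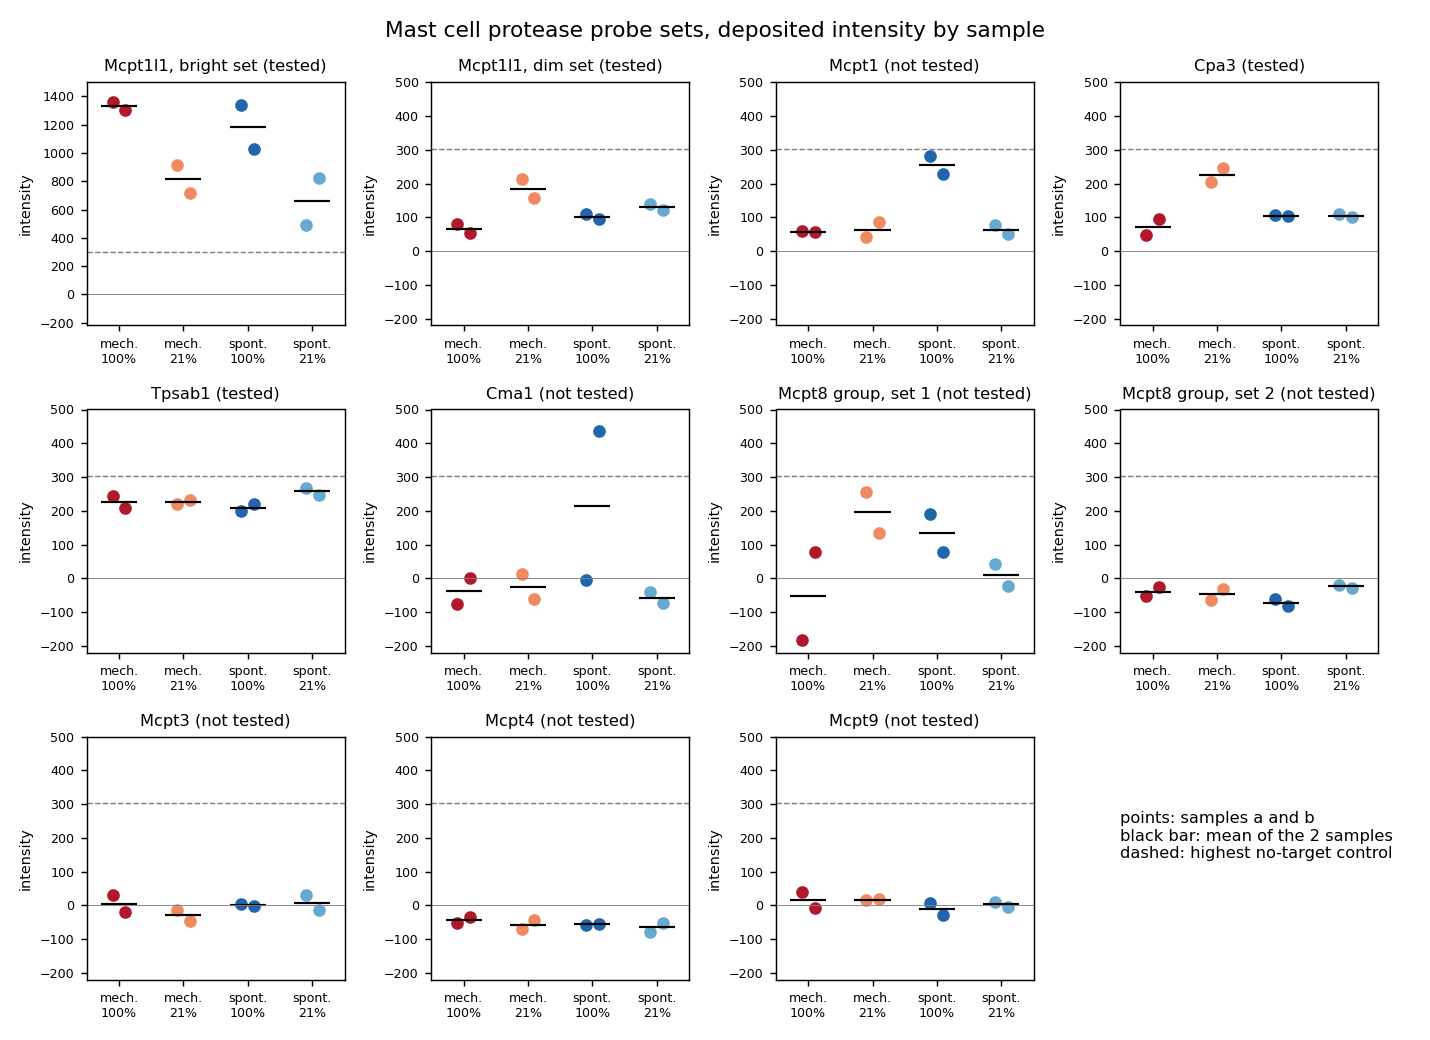
Deposited intensity (arbitrary units, y axis) of the 11 mast cell protease probe sets in the samples of the 4 groups (x axis), with a point for each sample, a black bar at the mean of 2 samples and a dashed line at the highest no-target control (302). The brighter Mcpt1l1 set, whose y axis reaches higher than the others, is above the line throughout, Cpa3 and the dimmer Mcpt1l1 set are highest in mechanical 21, Mcpt1 is highest in spontaneous 100, and Cma1 passes the line in spontaneous 100 b alone.

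Mcpt1l1 encodes a chymase close to rMCP-I, the chymase of rat connective tissue mast cells. Its brighter probe set read higher in the lungs given 100% oxygen, and among the pairs of groups and the interaction it passed the threshold only where both treatments were set against neither. It read 1362 and 1301 in mechanical 100, 916 and 720.1 in mechanical 21, 1341 and 1027 in spontaneous 100, and 492 and 823 in spontaneous 21. All 4 samples given 100% oxygen were above all 4 given 21%, the nearest pair being spontaneous 100 b and mechanical 21 a. The means were 1332 ± 42.6, 818 ± 139, 1184 ± 221 and 657 ± 234 in that order of groups (SD, n = 2 each).

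The F test over the 4 groups gave an adjusted p of 0.0320 for this probe set (limma, Benjamini-Hochberg over 5244 probe sets). Mechanical 100 exceeded spontaneous 21 by 1.01 ± 0.25 on the log2 scale (SE, adjusted p = 0.0291). With no filter, over 8740 probe sets, neither passed, at an adjusted p of 0.145 for the F test and 0.127 for that pair. The scale throughout is log2 of the intensity plus 40, which understates the changes of dim probe sets. The changes with oxygen alone did not pass, with log2 0.84 ± 0.25 under spontaneous breathing (adjusted p = 0.0513) and 0.68 ± 0.25 under mechanical ventilation (adjusted p = 0.0636). Those with ventilation were 0.33 ± 0.25 at 21% oxygen (adjusted p = 0.403) and 0.17 ± 0.25 at 100% oxygen (adjusted p = 0.652). In the order of levels, mechanical 100 and spontaneous 100, spontaneous 100 and mechanical 21, and mechanical 21 and spontaneous 21 are neighbours, and none of these 3 pairs differed past the threshold.

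The call for both against neither was narrow. Its log2 change was 0.86 after quantile normalization (adjusted p = 0.0561), 0.80 after cyclic loess (adjusted p = 0.0660) and 0.66 without spontaneous 21 a (adjusted p = 0.115), and it was likewise lost without mechanical 100 a (adjusted p = 0.131) or mechanical 100 b (adjusted p = 0.0811). Among the arrays with the lot line alone it was 1.11 (adjusted p = 0.0641), and without both mechanical 21 samples it was 1.01 and still called (adjusted p = 0.0417). The 2 arrays of mechanical 100 b read 1128 and 1475, a difference of 0.38 on the log2 scale against a median of 0.11 over all tested probe sets.

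The dimmer probe set for Mcpt1l1 did not follow the brighter one. It read 81.3 and 52.6 in mechanical 100, 213 and 158 in mechanical 21, 110.3 and 94.0 in spontaneous 100, and 141 and 121 in spontaneous 21. Its highest samples were thus those of mechanical 21 and its lowest those of mechanical 100, and no sample reached the control ceiling. Its mean of 7.27 on the log2 scale was barely above the filter limit of 7.25. Without mechanical 21 it was 7.10, and without spontaneous 21 it was 7.23, both under the limit. The filtered test is thus conditioned on a group it compares. With no filter, over 8740 probe sets, it fell with oxygen under mechanical ventilation by 1.08 ± 0.23 on the log2 scale (adjusted p = 0.0405), a comparison in which 16.5% of all probe sets were called. The filtered test gave the same change (adjusted p = 0.0188), and -0.88 without mechanical 100 b (adjusted p = 0.0610). Over the 8 samples the log2 values of the 2 probe sets had a Pearson correlation of -0.60. Which transcripts each of them binds among the neighbouring chymase genes is not stated in the sources at hand, so the oxygen response of Mcpt1l1 has no single direction in these data.

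Mcpt1, whose RefSeq record also lists rMCP-II, the chymase of rat mucosal mast cells, had its highest values in spontaneous 100. It read 59.5 and 56.8 in mechanical 100, 41.1 and 85.4 in mechanical 21, 282 and 227 in spontaneous 100, and 77.6 and 49.4 in spontaneous 21. The spontaneous 100 samples were apart from the other 6, yet below the control ceiling. Its mean fell under the filter, so it was not tested with the others. When all 8740 probe sets were tested, Mcpt1 was lower in mechanical 100 than in spontaneous 100 by 1.58 ± 0.28 on the log2 scale (SE, change -1.58, adjusted p = 0.039), a comparison in which 9.11% of all probe sets were called. Under that setting mechanical 21 against spontaneous 100 gave -1.54 (adjusted p = 0.0467), and spontaneous 100 against spontaneous 21 gave 1.52 (adjusted p = 0.0507).

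Other tissues' transcripts were high in the same spontaneous 100 samples. Of 19 skeletal muscle genes 15 were on the array and 12 were tested, and 9 of the 12 were called higher with oxygen under spontaneous breathing, where 7.06% of all probe sets were. The fast troponin gene Tnni2 read 1397 and 1490 there, and was below 0 in both mechanical 100 samples. Of 14 squamous epithelium genes 7 were on the array and 3 tested, and 1 of the 3 was called higher in the same comparison. The squamous keratin gene Krt4 read 6288 and 6826 in spontaneous 100, and was below 0 in all 4 mechanically ventilated samples. Their part in the Mcpt1 values was not tested.

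Cma1 (gene 25627), the alpha chymase, was at the level of noise in 7 of 8 samples. It read -77.2 and 1.61 in mechanical 100, 11.6 and -60.7 in mechanical 21, -5.31 and 436 in spontaneous 100, and -41.8 and -74.5 in spontaneous 21. The difference between spontaneous 100 b and a ranked 3 among 8740 probe sets for that pair of samples. The largest was that of Prg2, which encodes the major basic protein of eosinophil granules and read -16.9 in a and 1358 in b. No change of Cma1 passed when all probe sets were tested.

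The remaining chymase genes were close to 0. Mcpt4 was below 0 in every sample (-78.2 to -35.2), Mcpt3 lay between -45.9 and 30.4, and the probe set for Mcpt9 alone lay between -29.2 and 41.2. Of the 2 probe sets shared by Mcpt8, Mcpt8l2, Mcpt8l3, Mcpt9 and Mcpt10, 1 was below 0 in every sample. The other read -183 and 78.9 in mechanical 100, 256 and 135 in mechanical 21, 189 and 78.7 in spontaneous 100, and 42.2 and -22.8 in spontaneous 21. Samples of 1 group were as far apart there as the groups, and the signal cannot be given to any of the 5 genes. In mouse, Mcpt8 marks basophils.

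Tpsab1, a tryptase whose RefSeq record lists the name Mcpt7, showed the smallest differences of the tested members. It read 245 and 209 in mechanical 100, 219.8 and 233 in mechanical 21, 199 and 220.1 in spontaneous 100, and 267 and 247 in spontaneous 21. All 8 samples were below the control ceiling and the groups overlapped, apart from spontaneous 21, whose samples were above the rest. Its log2 changes in the 6 pairs of groups ran from -0.25 to 0.10, and the F test gave an adjusted p of 0.706. Tpsb2, the neighbouring tryptase on chromosome 10, falls outside the rule by its symbol and was bright. It read 1062 and 1064 in mechanical 100, 856 and 734 in mechanical 21, 1054 and 1252 in spontaneous 100, and 710.2 and 881 in spontaneous 21. As for the brighter Mcpt1l1 probe set, samples in 100% oxygen were all above those in 21%, here the closest being spontaneous 100 a and spontaneous 21 b. Its change with oxygen was 0.52 ± 0.16 on the log2 scale under spontaneous breathing (adjusted p = 0.0648) and 0.40 ± 0.16 under mechanical ventilation (adjusted p = 0.0879), and neither passed. The tryptases are near copies of each other, and signal from 1 can reach the probes of another.

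Cpa3, carboxypeptidase A3, was highest in mechanical 21. It read 48.9 and 95.5 in mechanical 100, 204 and 246 in mechanical 21, 107 and 103 in spontaneous 100, and 109 and 101 in spontaneous 21. Both mechanical 21 samples were above the other 6, and all 8 were below the control ceiling. The means were 72.2 ± 33.0, 225 ± 29.6, 105 ± 2.52 and 105 ± 5.57 in that order of groups (SD, n = 2 each). Cpa3 passed the filter only through mechanical 21, with a log2 mean of 7.30 over all samples and 7.05 without that group. With no filter it fell with oxygen under mechanical ventilation by 1.27 ± 0.25 on the log2 scale (adjusted p = 0.0341), and the F test did not pass (adjusted p = 0.0771). The filtered tests, conditioned on the group compared, gave -1.27 ± 0.29 (adjusted p = 0.0112) and an F test at an adjusted p of 0.0336.

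In the filtered fit the log2 change of mechanical 21 was 0.87 ± 0.29 against spontaneous 21 (adjusted p = 0.0806) and 0.87 ± 0.29 against spontaneous 100 (adjusted p = 0.0772), neither of which passed. The interaction, the change with ventilation at 100% oxygen minus that at 21%, was -1.27 ± 0.41 (adjusted p = 0.04996) and lay at the threshold, subject to the same condition. It did not pass without the filter (adjusted p = 0.0881), with the lot line as a block (-0.63, adjusted p = 0.702), with the replicate letter as a block (-1.27, adjusted p = 0.0662), or without mechanical 100 a (-0.96, adjusted p = 0.0986). Nor did it pass with any of the 4 spontaneous samples left out, with adjusted p between 0.0936 and 0.113. Without either mechanical 21 sample Cpa3 fell below the filter and was not tested. The fall with oxygen under mechanical ventilation was -0.95 within the arrays that lack the lot line (adjusted p = 0.0610), and the same with the lot line as a block (adjusted p = 0.102).

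The samples with high Cpa3 were also those with high lymphocyte and fat transcripts. Of 28 lymphocyte genes 19 were on the array and 12 tested, and 9 of the 12 were called higher and 0 lower in mechanical 21 than in spontaneous 21, against 7.0% and 7.49% of all probe sets. Thy1 read 7727 and 9575 in mechanical 21, against at most 258 elsewhere, while Cd28 was below 0 in all 8 samples. Of 13 fat genes 10 were on the array and 9 tested, with 5 higher and 1 lower in that comparison. Ucp1, the uncoupling protein of brown fat, read 6179 and 6247 in mechanical 21, and Plin1 was below 0 in all 8 samples. Their part in the Cpa3 and the dimmer Mcpt1l1 values was not tested.

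Over the 4 tested probe sets, 2 were called by the F test, where 42.7% of all tested probe sets were. Oxygen under mechanical ventilation gave 2 calls, both lower, against 35.1% of all probe sets (14.4% lower), and the interaction gave 1 against 27.4%. Both treatments against neither gave 1 call against 14.5%. There was no call for ventilation at 21% oxygen (14.5% of all), for ventilation at 100% oxygen (26.9%), for oxygen under spontaneous breathing (16.8%) or for ventilation alone against oxygen alone (16.3%). At an unadjusted p under 0.05 these 4 comparisons held 1, 0, 1 and 2 of the 4 probe sets. With 4 probe sets, of which Cpa3 and the dimmer Mcpt1l1 set fell under the filter without mechanical 21, such counts show nothing particular to the proteases. The contrasts share groups, so their values are given side by side and are not separate observations.

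**Figure D2:**
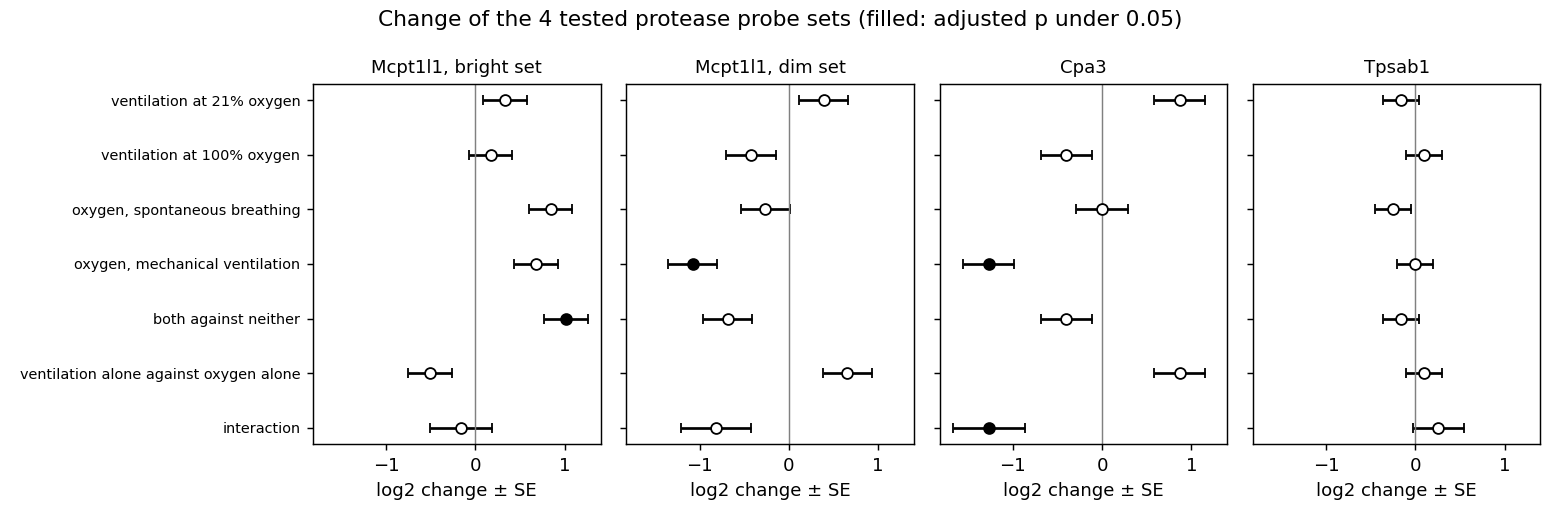
Log2 change with its SE (x axis) of the 4 tested probe sets in the 6 pairs of groups and the interaction (y axis), with filled points where the adjusted p was under 0.05. Filled points are both against neither for the brighter Mcpt1l1 set (1.01), oxygen under mechanical ventilation for the dimmer Mcpt1l1 set (-1.08) and for Cpa3 (-1.27), and the interaction for Cpa3 (-1.27).

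Among 3180 other tested genes, those whose log2 values ran most like the brighter Mcpt1l1 probe set over the 8 samples were Nsfl1c (r = 0.981), Nsg1 (r = 0.974) and Rab8b (r = 0.964), a small GTPase of vesicle transport. For Cpa3 they were the immunoproteasome subunit gene Psmb8 (r = 0.988), Acap1 (r = 0.969) and Emb (r = 0.968). Acap1 averaged 931 ± 78.8 in mechanical 21 and at most 245 ± 62.4 in the other groups (SD, n = 2 each). For Tpsab1 they were Ercc8 (r = 0.961), Syngr2 (r = 0.917) and Drd3 (r = 0.913). Between members, the brighter Mcpt1l1 probe set ran with Tpsb2 (r = 0.83) and the dimmer one with Cpa3 (r = 0.74). These are descriptions over 8 samples in 4 groups, which share any shift between groups.

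Of 28 other mast cell genes listed, 15 were on the array and 9 tested. The F test called 4 of the 9, near the 42.7% of all tested probe sets that it called. Kit, the receptor for the growth factor on which mast cells depend, read 347 and 428 in mechanical 100, 183 and 169 in mechanical 21, 214 and 203 in spontaneous 100, and 399.6 and 354 in spontaneous 21. It was thus high with both treatments or neither and lower with either alone, and the groups of these 2 kinds did not overlap. Its log2 interaction was 1.72 ± 0.28 (adjusted p = 0.00377), opposite in sign to that of Cpa3. It rose with oxygen under mechanical ventilation by 0.98 ± 0.20 (adjusted p = 0.00765) and fell with ventilation at 21% oxygen by 0.95 ± 0.20 (adjusted p = 0.0195). Kit is also made by cells other than mast cells. Its higher groups carry the lot line, apart from an array of mechanical 100 b, so line and pattern can hardly be told apart.

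Hpgds, the prostaglandin D2 synthase of mast cells and some lymphocytes, read 112 and 104 in mechanical 100, 299 and 272 in mechanical 21, 140 and 175 in spontaneous 100, and 251 and 148 in spontaneous 21. Like Cpa3 it fell with oxygen under mechanical ventilation, by 1.14 ± 0.27 (adjusted p = 0.0135). Alox5ap, which leukotriene synthesis requires, read 4078 in spontaneous 100 and 2731 in spontaneous 21 on average and rose by 0.57 ± 0.14 (adjusted p = 0.0280), which was 0.48 after quantile normalization (adjusted p = 0.0558). Cd63, a granule membrane protein of many cells, fell by 0.53 ± 0.12 with oxygen under mechanical ventilation (adjusted p = 0.0123), but its change was 0.01, of the opposite sign, after quantile normalization (adjusted p = 0.951).

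Several genes of the list were faint in all groups, unlike Kit, Tpsb2 and the brighter Mcpt1l1 probe set. Fcer1a, the alpha chain of the high-affinity IgE receptor, lay between 24.7 and 54.6, and its beta chain gene Ms4a2 between -17.1 and 55.7. Hdc, the histamine-forming enzyme, and Tph1, the serotonin-forming enzyme of mast cells, reached at most 43.4 and 23.4. None of these, named here after their values were seen, was tested. Srgn, which many leukocytes and endothelial cells also express, lay between 957 and 1634 and did not pass the F test (adjusted p = 0.180). The summed intensity of the 15 genes was 13608 and 13265 in mechanical 100, 15829 and 15904 in mechanical 21, 16063 and 16700.0 in spontaneous 100, and 14498 and 13252 in spontaneous 21. Most of each sum came from Cd63 (6461 to 9785) and Alox5ap (2589 to 4432), so it is not a level of mast cells.

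**Figure D3:**
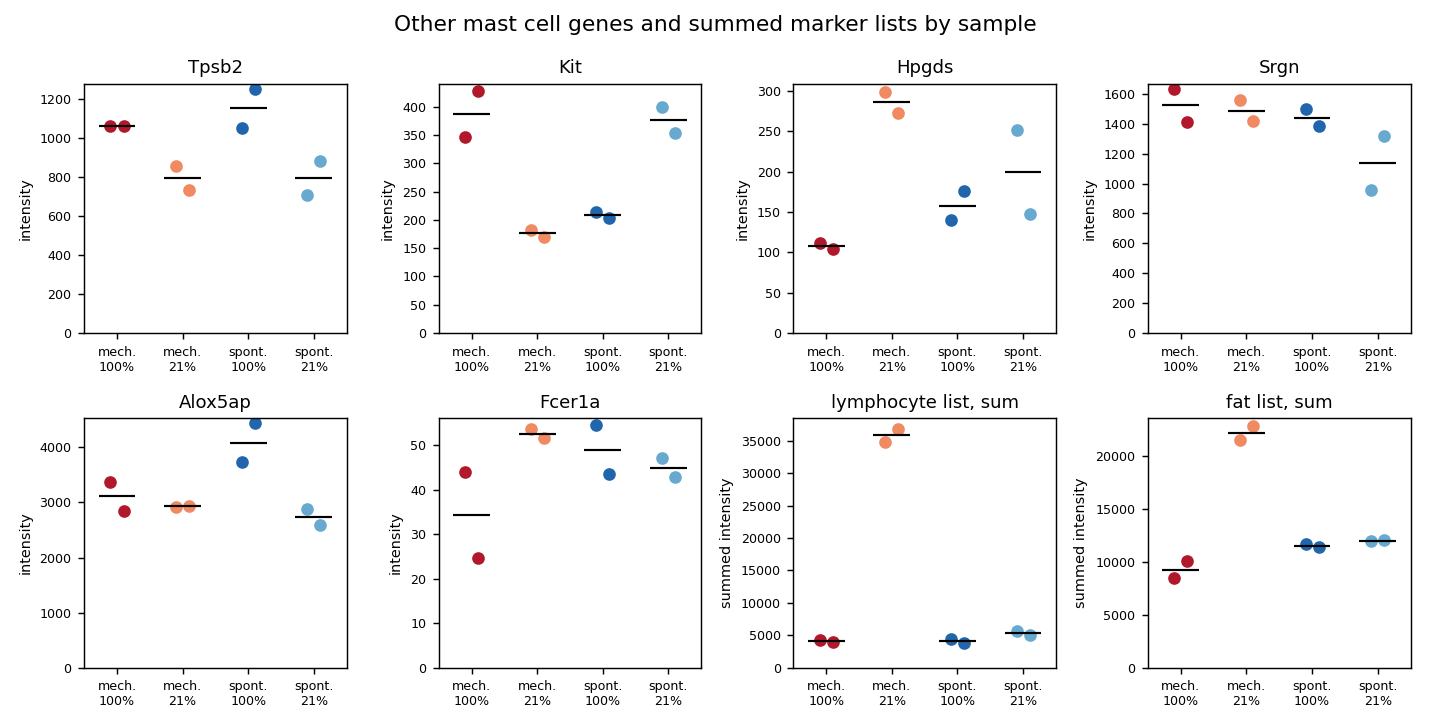
Deposited intensity (arbitrary units, y axis) of 6 mast cell genes other than the chosen proteases, and summed intensity of the lymphocyte and fat lists, in the samples of the 4 groups (x axis), with a point for each sample and a black bar at the mean of 2 samples. Tpsb2 is higher in 100% oxygen, Kit is lowest in mechanical 21 and spontaneous 100, Hpgds and both sums are highest in mechanical 21, and Fcer1a stays at or under 54.6.

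Of 29 genes listed for the processing, inhibitors, substrates and receptors of mast cell proteases, 23 were on the array and 17 tested. The list is broad and also holds genes such as Ace and Agtr1a, which do not act on these proteases. The F test called 9 of the 17, beside 42.7% of all tested probe sets. For both treatments against neither 3 of the 17 were higher and 0 lower, beside 393 higher and 368 lower of all 5244 tested probe sets. The median log2 change of the 17 was 0.24 there, beside 0.10 over all tested probe sets. For ventilation at 100% oxygen 10 were higher and 0 lower, where 16.6% of all probe sets were higher, and for oxygen under mechanical ventilation 8 were higher and 0 lower, where 20.7% were higher. The median log2 change of the 17 was 0.58 and 0.60 in these comparisons, beside 0.13 and 0.14 over all tested probe sets. After quantile normalization, which lowered the median change of all probe sets by 0.132 and 0.123, the counts were 6 higher and 0 lower, and 6 higher and 2 lower. Of all 5244 tested probe sets, 599 were then higher and 511 lower, and 817 higher and 839 lower. As deposited, 0 of the 17 were higher and 3 lower for ventilation at 21% oxygen, beside 367 higher and 393 lower of all. For oxygen under spontaneous breathing 1 was higher and 4 lower, beside 370 higher and 509 lower of all. The median log2 changes of the 17 there were -0.22 and -0.19, beside -0.06 and -0.05 over all tested probe sets.

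Cathepsin C, encoded by Ctsc, activates chymases by removing a dipeptide. It read 5219.9 and 5293 in mechanical 100, 2958 and 3012 in mechanical 21, 2738 and 2741 in spontaneous 100, and 3617 and 3304 in spontaneous 21. The mechanical 100 samples were above all others, by 0.93 ± 0.11 on the log2 scale against spontaneous 100 (adjusted p = 0.00146) and 0.81 ± 0.11 against mechanical 21 (adjusted p = 0.00141). Serpina1, an inhibitor of serine proteases, averaged 2274 in mechanical 100, 1195 in spontaneous 100 and 792 in spontaneous 21, and was higher with both treatments than with neither by 1.48 ± 0.15 (adjusted p = 0.00101).

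Fibronectin, encoded by Fn1 and a chymase substrate, averaged 7683 in mechanical 100, 2508 in mechanical 21, 3861 in spontaneous 100 and 6894 in spontaneous 21. Ace, which makes angiotensin II as human chymase also does, averaged 4775, 2385, 2298 and 5364 in that order of groups. Both were thus lower with either treatment alone than with both or neither, and their log2 interactions were 2.43 ± 0.17 (adjusted p = 0.000121) and 2.20 ± 0.16 (adjusted p = 0.000131). The groups with high values carry the lot line, apart from an array of mechanical 100 b. That line and this pattern can thus hardly be told apart. F2rl1, the receptor that tryptase activates, averaged 494 in mechanical 100 and 239 in spontaneous 100, a log2 change of 0.94 ± 0.24 (adjusted p = 0.0234) that was 0.73 after quantile normalization (adjusted p = 0.0625). Mmp2, a gelatinase that chymase can activate, averaged 3659 in mechanical 100 and 1605 in mechanical 21, a change of 1.17 ± 0.14 (adjusted p = 0.00109).

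Of 16 listed mast cell growth factors, cytokines and signalling genes, 14 were on the array and 11 tested. The F test called 8 of the 11, beside 42.7% of all tested probe sets, and Il13 is among the 8. The kinase gene Syk and the phospholipase genes Plcg1 and Plcg2 were lower with either treatment alone than with both or neither, and their log2 interactions were 1.99 ± 0.30, 1.58 ± 0.24 and 2.04 ± 0.28 (adjusted p = 0.00277, 0.00301 and 0.00195). Here too the groups with high values carry the lot line, apart from an array of mechanical 100 b. Line and pattern can hardly be told apart. Lyn, the kinase bound to the IgE receptor, rose with oxygen under mechanical ventilation by 0.74 ± 0.13 (adjusted p = 0.00391). These genes are shared with other blood and tissue cells. Among the granzymes, whose genes are relatives of the chymases, 7 of 15 listed were on the array and 3 tested, and the F test called 2 of the 3, beside 42.7% of all tested probe sets. Gzmk averaged 58.6 in mechanical 100 and 402 in spontaneous 21, a change of -2.26 ± 0.27 (adjusted p = 0.00206), whereas Gzmb averaged 955 in mechanical 100 and 462 in mechanical 21, a change of 0.98 ± 0.17 (adjusted p = 0.00416).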

How the data were processed

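The values are intensities as deposited by the authors in 1 table of 8799 probe sets on 9 arrays of rat lung RNA; the software behind them was not given in the sources used here. That they are scaled was read from their trimmed means. The 59 control probe sets were removed, values below 0 were set to 0, and log2(intensity + 40) was taken, 40 being 5% of the mean trimmed mean. The 2 arrays of mechanical 100 b were averaged. The lowest 40% by mean were not tested, leaving 5244. A group-means model over 8 samples was then fitted (limma 3.58.1, R 4.3.3, eBayes with trend, 4 residual degrees of freedom), and p-values were adjusted by Benjamini-Hochberg over all tested probe sets. An adjusted p under 0.05 counted as a call. Intensities in the text are not logged.

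Of 8740 probe sets, 7006 had 1 symbol in the array annotation, 308 several and 1426 none. The brightest probe set stood for a gene outside the proteases. All member probe sets are named, from each list up to 4 genes of smallest F-test p plus any described for their role, and per member the 3 genes most like it. Members and lists were chosen with earlier results of these data known. Ctsc, F2rl1, Il13, Lat, Srgn, Prg2, Krt4, Tnni2, Thy1, Ucp1, Cd28, Plin1 and the faint mast cell genes were picked after their values were seen. Promoter pairs were aligned with Biopython 1.88, and figures drawn with matplotlib 3.10.9. The procedure was tried on simulated data. Alternatives covered normalization, offset, filter, the doubled sample, the letter or lot line as a block, trend, threshold, groups fitted and each sample left out. Fits without mechanical 21 and within arrays with or without the lot line were added after seeing the data.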

Additional observations from a re-analysis of the deposited data

Results flagged for a closer look

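The change of Cpa3 with ventilation differed between the oxygen levels by the interaction test, with a log2 value of -1.27 (adjusted p = 0.04996, limma). Ventilation went with a log2 change of -0.40 at 100% oxygen and 0.87 at 21% oxygen, and neither change passed by itself. Without the filter on low signal the interaction did not pass (adjusted p = 0.0881), and Cpa3 passed that filter only through mechanical 21, the group that sets the interaction. The test rests on intensities below the highest control reading, and the interaction did not pass with the lot line as a block.

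Cma1 was not tested, yet 1 sample, spontaneous 100 b, read 436 and was above the highest no-target control at 302. The other sample of that group read -5.31. Prg2, an eosinophil granule gene, was high in the same sample alone, at 1358.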

How the results depend on the processing

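No change of a protease probe set with an unadjusted p under 0.05 turned its direction under the alternatives tried. Among the other genes described, the called falls of Cd63 turned after quantile normalization, to 0.01 for oxygen under mechanical ventilation and 0.08 for ventilation at 100% oxygen. Of the counts of called members, 121 of the 181 recomputed stayed within 1.5 times the count reported, and the other 60 moved by 1 or 2 of 4 probe sets. For ventilation at 21% oxygen (0 calls) the count was 1 without the variance trend or at a threshold of 0.10, and 0 to 1 with a sample left out. For ventilation at 100% oxygen (0) it was 1 without the filter. For oxygen under spontaneous breathing (0) it was 1 after quantile or cyclic loess normalization, with an offset of 10%, with a filter of 60% or at 0.10, and 0 to 1 with a sample left out. For oxygen under mechanical ventilation (2) it was 1 with a filter of 60%, within the arrays without the lot line and with the brightest probe set of each gene, 0 with the lot line as a block over 9 arrays, and 0 to 3 with a sample left out. For both against neither (1) it was 0 after quantile or cyclic loess normalization, without the filter, with array A alone, without the trend, within the arrays with the lot line and with only these groups fitted, and 0 to 1 with a sample left out. For ventilation alone against oxygen alone (0) it was 1 without the filter, without the trend, within the arrays without the lot line, at 0.10 and with only these groups fitted, and 0 to 1 with a sample left out. The interaction count (1) was 0 with an offset of 1%, without the filter, with a filter of 60%, with array A alone, with the replicate letter as a block and with the lot line as a block, and 0 to 1 with a sample left out. The F-test count (2) was 1 without the filter, with a filter of 60% and with either block, and 0 to 1 with a sample left out. Without the filter, the single F-test call was Mcpt1, which is outside the 4 probe sets of the main fit. So were the unfiltered calls for ventilation at 100% oxygen and for ventilation alone against oxygen alone. Letters a and b share only a letter: deviations of same-lettered samples correlated at -0.128 to 0.0657 between groups, and with the letter as a replicate block Cpa3 had an interaction of -1.27 (adjusted p = 0.0662). The share of all probe sets called for the interaction ran from 3.03% (lot block) to 37.2% (threshold 0.10). Higher calls were 58.9% of all calls for oxygen under mechanical ventilation and 49.3% after quantile normalization, and 61.7% and 51.6% for the interaction, and 49.4% for the interaction after cyclic loess. The lot block counted the 9 arrays apart, since a random block for the doubled sample could not be fitted. Limits are 2 samples a group, probe sets at or below the control ceiling for all members but 2, and no detection calls.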

Other observations

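Transcripts of eosinophils were measured by 4 listed genes, 2 of them tested. Alox15, a lipoxygenase of eosinophils, macrophages and airway epithelium, read 1442 and 1546 in mechanical 100, 1484 and 1380.2 in mechanical 21, 2431 and 2547 in spontaneous 100, and 1358 and 1723 in spontaneous 21. Both spontaneous 100 samples were above the other 6, and the F test gave an adjusted p of 0.00912 (limma). The rest of the list did not share this. Ccr3, also tested, did not pass the F test (adjusted p = 0.721), Cebpe was below 0 in all 8 samples, and Prg2 was high in spontaneous 100 b alone. Il13, a cytokine that acts on airway epithelium and is made by mast cells among others, read 301 and 284 in mechanical 100, 720.2 and 607 in mechanical 21, 603 and 781 in spontaneous 100, and 381 and 586 in spontaneous 21. It was lower in mechanical 100 than in spontaneous 100, with a log2 change of -1.13 ± 0.23 (adjusted p = 0.0121), and lower than in mechanical 21, with -1.08 ± 0.23 (adjusted p = 0.00926). Lat, an adaptor of T cell and mast cell receptors, read 2065 and 2690 in mechanical 21, against -27.6 to 286 in the other 6 samples, and the lymphocyte list was high in the same samples.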
